A study of Rattus norvegicus with 16 samples.

Results

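Macrophages of white fat were followed here through 10 genes for their surface receptors, lysosomal proteins and signalling adaptors: Trem2, Gpnmb, Cd68, Adgre1, Lyz2, Fcgr1a, Mrc1, Cd163, Csf1r and Card9. The genes were taken by symbol, and all 10 had a named probe among the 15168 genes that the array could be matched to. All 10 were also well above background on all 16 arrays, so none was lost among the 11592 genes tested. Csf1r and Fcgr1a had 2 probes each. The probe of higher mean signal stands for the gene throughout, and the other is called its second probe.

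The tissue was epididymal white adipose tissue (EWAT), a visceral fat pad, of male rats of 30 days that had free access to food when killed. Dams of both groups ate a high-fat diet through pregnancy and lactation, and the pups stayed on that diet. In the HF group (n = 8) the dams took a vehicle of low-fat condensed milk. In the HFT group (n = 8) they took the same milk with grape seed procyanidin extract (GSPE), a polyphenol mixture, at 25 mg/kg. The control animals thus shared the high-fat diet, and no group on another diet was compared here. Treatment reached the pups through the dam, and litters had been set to 10 pups. The labels do not say which animals were littermates, so the p-values treat all 16 as independent. Each animal had its own 1-colour Agilent array, and animals are named by group and label number.

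TREM2 is a lipid-sensing receptor of macrophages that signals through the adaptor TYROBP. With GPNMB, a glycoprotein of lysosomes and the cell surface, and CD68, a lysosomal membrane glycoprotein, it was grouped here as lipid-associated. The group stands for the lipid-laden macrophages that gather in fat of obese animals, although Cd68 also serves below as a marker of macrophages. MRC1 (a mannose receptor) and CD163 (the scavenger receptor for haemoglobin bound to haptoglobin) mark resident macrophages of fat. CSF1R, the receptor for the growth factor CSF1, and ADGRE1, the antigen known as F4/80, mark macrophages in general.

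Adipocyte genes checked the tissue label: Adipoq, Lep and Cidec were well above background on all 16 arrays. The macrophage markers Csf1r, Adgre1, Cd68, C1qa and Spi1 were too, whereas Mpeg1 was so on 3 arrays. Arrays had a 75th percentile of signal between 753 and 1366, and no spot was saturated. Each of 4 slides held 2 HF and 2 HFT arrays, with HF always at positions 1 and 2, so position and group cannot be told apart. Arrays HF 35, HFT 22 and HFT 24 stood at least 4.57 log2 units above the median array on a list of urothelial genes. Arrays HF 8, HFT 23 and HFT 28 stood at least 8.63 above it for Lcn5, a lipocalin of the epididymal epithelium. Between them these 6 arrays held 2 HF and 4 HFT animals, and results that depend on them are also given over the 10 others.

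Among the genes on which the results turn, Cd68, Adgre1 and Mrc1 belong to a larger set that moved together from animal to animal. Trem2 and Gpnmb did not move with each other. For that reason promoter sequences are shown for these 5 of the genes. They are RefSeq sequences on build GRCr8 and run from 250 bases before the annotated start to 50 after it, 5′ to 3′ on the gene's strand. Capitals mark GAGGAAG, the core bound by PU.1, the lineage factor of macrophages encoded by Spi1, or TGACTCA, the AP-1 site, on either strand.
Trem2, chr9:20151730-20152029, minus strand: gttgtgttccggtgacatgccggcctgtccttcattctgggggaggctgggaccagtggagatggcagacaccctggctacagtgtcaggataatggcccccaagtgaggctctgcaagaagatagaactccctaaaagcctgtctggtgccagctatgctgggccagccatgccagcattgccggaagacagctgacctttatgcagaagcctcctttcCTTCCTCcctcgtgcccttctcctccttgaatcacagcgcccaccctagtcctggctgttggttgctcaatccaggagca
Gpnmb, chr4:79340878-79341177, plus strand: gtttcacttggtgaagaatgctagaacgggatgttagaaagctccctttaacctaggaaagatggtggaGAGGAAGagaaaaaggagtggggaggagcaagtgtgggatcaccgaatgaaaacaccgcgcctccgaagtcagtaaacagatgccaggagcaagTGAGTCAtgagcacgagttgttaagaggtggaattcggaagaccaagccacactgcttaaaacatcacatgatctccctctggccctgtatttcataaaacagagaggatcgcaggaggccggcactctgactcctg
Cd68, chr10:54882392-54882691, minus strand: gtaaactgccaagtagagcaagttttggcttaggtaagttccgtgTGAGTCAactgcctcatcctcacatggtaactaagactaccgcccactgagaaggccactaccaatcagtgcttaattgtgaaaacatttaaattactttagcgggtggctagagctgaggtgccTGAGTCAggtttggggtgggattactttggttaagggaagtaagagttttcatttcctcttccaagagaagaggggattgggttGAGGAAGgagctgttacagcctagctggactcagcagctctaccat
Adgre1, chr9:2329190-2329489, plus strand: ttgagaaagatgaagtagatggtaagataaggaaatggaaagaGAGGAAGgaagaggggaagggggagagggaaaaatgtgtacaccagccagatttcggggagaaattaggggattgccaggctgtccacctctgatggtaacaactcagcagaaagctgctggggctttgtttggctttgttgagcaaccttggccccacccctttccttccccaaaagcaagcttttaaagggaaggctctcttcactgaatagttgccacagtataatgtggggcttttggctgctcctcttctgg
Mrc1, chr17:82157475-82157774, plus strand: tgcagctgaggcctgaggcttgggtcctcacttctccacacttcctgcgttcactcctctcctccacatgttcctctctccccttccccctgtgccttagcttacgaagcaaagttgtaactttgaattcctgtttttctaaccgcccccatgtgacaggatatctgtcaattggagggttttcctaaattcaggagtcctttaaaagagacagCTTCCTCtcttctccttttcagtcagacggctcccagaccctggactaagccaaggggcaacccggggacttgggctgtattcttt

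Of the 10 genes, 9 had a promoter in the reference table. GAGGAAG was present in 6 of the 9 (the 5 shown and Csf1r), against 12.4% of all 33469 promoters of the same 300 bases. TGACTCA was present in 2, Gpnmb and Cd68, against 4.63% of all. The E-box CACGTG, held by 6.42% of all, and TCACGTG, a form of it bound by the lysosomal regulators of the MITF and TFEB family and held by 3.2%, were in none of the 9. Every TCACGTG contains a CACGTG. The genes that shared the PU.1 core did not all move together over animals. Promoters of Cd163, Lyz2 and Card9 held none of these motifs. Cd163 still moved with Cd68, Adgre1 and Mrc1 (r = 0.87, 0.72 and 0.87).

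All 10 genes had a higher mean level in the offspring of GSPE-treated dams. For 6 of them (Trem2, Cd68, Lyz2, Fcgr1a, Cd163 and Card9) the difference was larger than the SD within groups. The share of all genes of which this holds was not counted. For all 10 the groups overlapped. Levels are log2 signals relative to each array's 75th percentile, so 0 is that percentile and a difference of 1 is a doubling of signal. The differences, HFT minus HF, ran from 0.03 (Csf1r) to 0.85 (Trem2) with a median of 0.33, while the median over all 11592 genes was -0.01. Of all genes, 46% had a difference above 0. No gene passed the limma test after Benjamini-Hochberg adjustment over the 21808 probes kept (percent called 0, smallest adjusted p = 0.999994), so none of these differences is a change by that test. At an unadjusted limma p under 0.05, 5 of the 10 genes (Trem2, Cd68, Lyz2, Fcgr1a and Card9) were higher in HFT and none was lower. The share of all genes so called was 1.16% higher and 1.15% lower, or 134 and 133 genes. Over all probes kept, the counts were 247 higher and 268 lower. The 10 genes were chosen with earlier results of these data known, so these shares are no test of them. Cd68 and Fcgr1a also moved together over animals (r = 0.88), so the 5 are not separate observations. The count of 5 was 2 without HF 35, and 3 without HF 10, HF 11, HFT 25 or HFT 27. For single genes the text gives a two-sided exact permutation p of the mean difference over all 12870 assignments of the animals, not adjusted for the number of genes. RNA was taken from whole tissue, so a different number of macrophages and a different amount of each RNA per macrophage cannot be told apart.

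**Figure D1:**
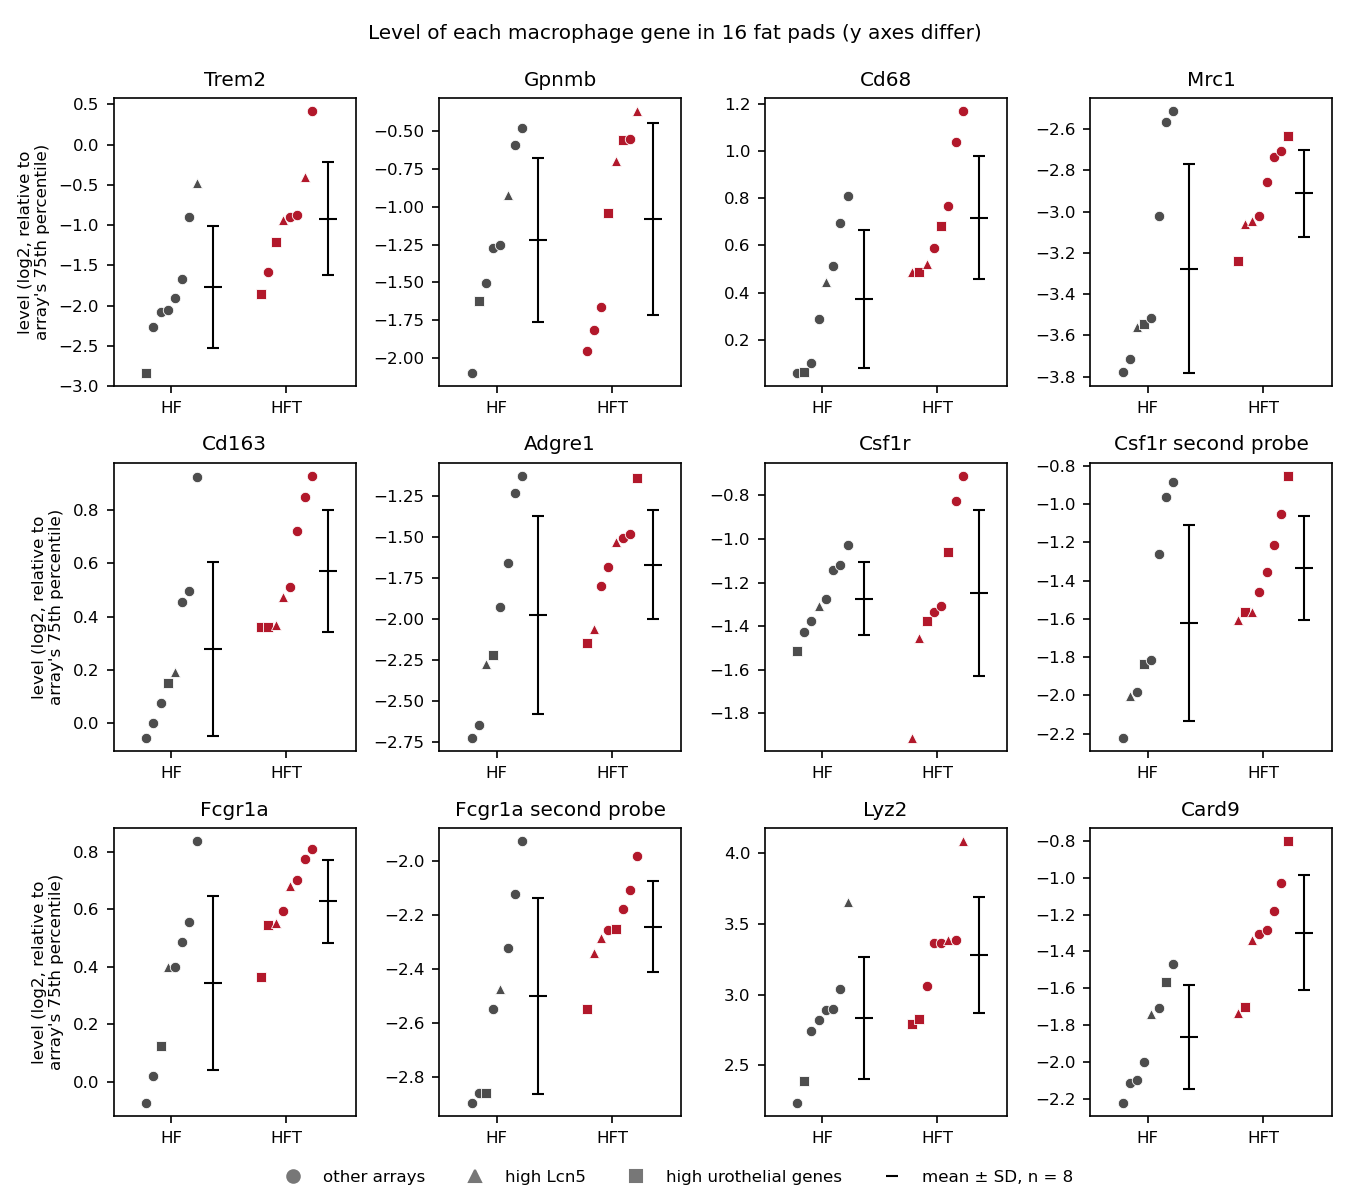
Level of each gene (log2 signal relative to the array's 75th percentile, vertical axes differ) on the 8 HF and 8 HFT arrays, with the second probes of Csf1r and Fcgr1a; bars are mean ± SD, triangles are arrays high for Lcn5 and squares arrays high for urothelial genes. The groups overlap for all genes, and for Card9 6 of 8 HFT arrays lie above every HF array.

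Among the genes of lipid-laden macrophages, Trem2 had the largest difference and the widest spread. Its level in HF ran from -2.84 (HF 35) through a median of -1.98 to -0.48 (HF 8). In HFT it ran from -1.86 (HFT 24) through -0.92 to 0.42 (HFT 36). The groups overlapped, with 5 HF animals below every HFT animal and 2 HFT animals above every HF animal. The means were -1.77 ± 0.76 in HF and -0.92 ± 0.70 in HFT (SD, n = 8 each). Their difference of 0.85 (SE 0.34, 95% interval 0.13 to 1.58) is a 1.81-fold higher signal, with an exact permutation p of 0.0343 and a limma adjusted p of 0.999994. By slide the difference was 0.00, 0.78, 0.41 and 2.23, so slide 4, which holds the lowest HF and the highest HFT animal, carried much of it. Without HFT 36 it was 0.66, the lowest value when 1 array was left out.

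Cd68 had a smaller and tighter difference. HF levels ran from 0.06 (HF 11) through 0.37 to 0.81 (HF 12), and HFT levels from 0.49 (HFT 23) through 0.64 to 1.17 (HFT 25). All 8 HFT animals lay above the HF mean, although HF 12 and HF 13 lay above the HFT median. The difference was 0.35 (SE 0.14, 95% interval 0.06 to 0.63, exact permutation p = 0.0266). Slides 2 and 4 showed it (0.75 and 0.64), slide 1 showed little (0.11) and slide 3 had the other sign (-0.11).

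Gpnmb, the third marker of that state, had no such difference. HF levels ran from -2.10 (HF 14) through -1.26 to -0.48 (HF 12) and HFT levels from -1.95 (HFT 27) through -0.87 to -0.37 (HFT 23). Both groups covered nearly the same range. The difference of 0.14 had a 95% interval from -0.45 to 0.73, which includes both 0 and the value for Cd68. Leaving out 1 array gave 0.01 (without HF 14) to 0.26 (without HFT 27). Its sign turned with the arrays used: it was -0.02 once the 3 arrays with high urothelial genes were dropped and -0.30 over the 10 arrays high for neither tissue.

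The resident markers were both higher in HFT by about the same amount as Cd68. For Mrc1, HF levels ran from -3.78 (HF 11) through -3.53 to -2.51 (HF 12), and HFT levels from -3.24 (HFT 24) through -2.94 to -2.63 (HFT 22). In HF, 5 animals lay below every HFT animal, while HF 12 and HF 13 lay above every HFT animal. The difference was 0.36 (SE 0.19, 95% interval -0.03 to 0.76, exact permutation p = 0.0847). With normexp background correction it was 0.14. For Cd163, HF levels ran from -0.06 (HF 11) through 0.17 to 0.93 (HF 12), and HFT levels from 0.36 (HFT 24) through 0.49 to 0.93 (HFT 27). Again 5 HF animals lay below every HFT animal. The Cd163 difference was 0.29 (SE 0.14, 95% interval 0.00 to 0.59, exact permutation p = 0.0587).

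Of the general markers, Adgre1 had a difference of 0.31 (SE 0.23, 95% interval -0.18 to 0.80, exact permutation p = 0.221). HF levels ran from -2.73 (HF 10) through -2.07 to -1.13 (HF 13) and HFT levels from -2.14 (HFT 24) through -1.60 to -1.14 (HFT 22). No HFT animal lay above every HF animal. Without HF 10 the difference was 0.20, and other single arrays left out gave up to 0.43. Csf1r was almost level: from -1.52 (HF 35) through -1.29 to -1.03 (HF 12) in HF, and from -1.91 (HFT 28) through -1.32 to -0.71 (HFT 27) in HFT. The difference of 0.03 (95% interval -0.28 to 0.33) changed sign when HF 35, HFT 22, HFT 26 or HFT 27 was left out, with values between -0.05 and 0.12 over all such fits. It was 0.17 without the 3 arrays high for Lcn5 and 0.18 over the 10 arrays high for neither other tissue. The second probe of Csf1r gave 0.29 (SE 0.20, exact permutation p = 0.179), with all 8 HFT animals above the HF mean, so the probes of this gene disagree.

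Fcgr1a, the high-affinity receptor for IgG, was higher in HFT by 0.28 (SE 0.12, 95% interval 0.04 to 0.53, exact permutation p = 0.0333). HF levels ran from -0.08 (HF 10) through 0.40 to 0.84 (HF 13), and HFT levels from 0.37 (HFT 24) through 0.64 to 0.81 (HFT 25). All 8 HFT animals lay above the HF mean, but HF 13 was the highest of all 16. Its second probe gave 0.26 (SE 0.14, exact permutation p = 0.0911), and the probes moved together over animals (r = 0.94).

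Lyz2, a secreted and lysosomal lysozyme of phagocytes, was higher in HFT by 0.45 (SE 0.20, 95% interval 0.03 to 0.87, exact permutation p = 0.0503). HF levels ran from 2.23 (HF 10) through 2.86 to 3.65 (HF 8), and HFT levels from 2.79 (HFT 24) through 3.37 to 4.09 (HFT 28). The highest animal of each group, HF 8 and HFT 28, was an array high for Lcn5. The difference was 0.34 without HFT 28 and 0.57 without HF 8. Lysozyme genes form a family of close copies in rodents, and whether the probe separates them was not tested.

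Card9, the adaptor that carries signals from C-type lectin receptors to NF-kappaB, had the clearest separation. HF levels ran from -2.22 (HF 12) through -1.87 to -1.47 (HF 11), and HFT levels from -1.74 (HFT 28) through -1.30 to -0.80 (HFT 24). Only HFT 28 and HFT 22 lay within the HF range, and 6 HFT animals lay above every HF animal. The difference was 0.57 (SE 0.15, 95% interval 0.26 to 0.87), a 1.48-fold higher signal. The exact permutation p was 0.00264. By unadjusted limma p it ranked 7 of 11592 genes, and the adjusted p was 0.999994. The 4 slides each showed it, at 0.35, 0.74, 0.78 and 0.40. Leaving out single arrays gave 0.50 to 0.63, and the 10 arrays high for neither tissue gave 0.74.

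**Figure D2:**
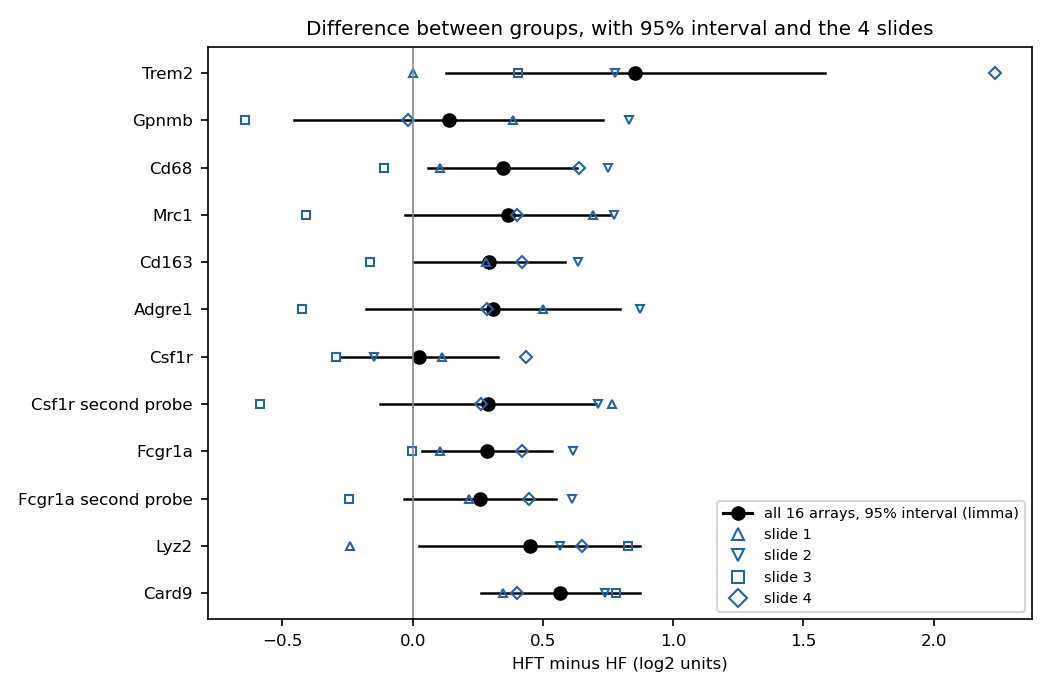
Difference HFT minus HF in log2 units for each gene and second probe; black points and bars are the limma estimate and 95% interval over 16 arrays, and blue symbols are the difference within each of the 4 slides. Slide 3 (squares) lies below 0 for 7 of the 10 genes, and Trem2 and Card9 alone lie at or above 0 on all slides.

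Slide 3 differed from the other slides for most of the 10 genes. On slides 1, 2 and 4, 9 of the 10 genes were higher in HFT, but on slide 3 this held for 3 of 10 (Trem2, Lyz2 and Card9). Each slide compares 2 animals with 2, and the share of all genes was not counted by slide. Those below 0 on slide 3 include Cd68, Adgre1, Fcgr1a (-0.004), Mrc1 and Cd163. These moved together over animals and are not separate observations. Slide 3 carried HF 12 and HF 13, and 1 of these was the highest HF animal for 7 of the 10 genes. Trem2 and Card9 were the 2 genes with HFT above HF on all 4 slides, as were 3.16% of all genes. All 8 HFT animals exceeded the HF mean for 5 of the 10 genes (Cd68, Fcgr1a, Mrc1, Cd163 and Card9), against 0.906% of all genes. The SD was smaller in HFT than in HF for 7 of the genes, for example 0.21 against 0.51 for Mrc1. How many of all genes share this was not counted. The 7 include Cd68, Adgre1, Fcgr1a, Mrc1 and Cd163, which moved together. With slide as a block, 7 genes had an unadjusted limma p under 0.05 and a higher level in HFT, against 1.5% of all genes, and the adjusted p was 0.9996 for each.

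Whether the classes differed in their response was tested on the ratio of each lipid-associated gene to each resident or general gene within an animal. Such a log2 ratio has no meaning as a level, since probes differ in brightness, but its difference between groups does. None of the 12 ratios passed the exact two-sided permutation test over 12870 assignments after adjustment over the 12. The ratio of Trem2 to Csf1r was 0.83 higher in HFT (95% interval -0.05 to 1.71, exact p = 0.0642, adjusted p = 0.385), and higher than the HF mean in 7 of 8 HFT animals. With the second probe of Csf1r this ratio was 0.57 higher (-0.28 to 1.42, exact p = 0.176), with 6 of 8 HFT animals above the HF mean. That of Trem2 to Mrc1 was 0.49 higher (-0.33 to 1.31, exact p = 0.225) and that of Trem2 to Cd163 0.56 higher (-0.25 to 1.37, exact p = 0.161). These intervals are wide enough to include no difference and a doubling alike. Cd68 kept close to the resident genes: its ratio to Mrc1 differed by -0.02 (-0.29 to 0.25) and its ratio to Cd163 by 0.05 (-0.13 to 0.23). Cd68 to Csf1r differed by 0.32 (0.01 to 0.63, exact p = 0.048, adjusted p = 0.385), but by 0.06 (-0.28 to 0.40, exact p = 0.711) with the second probe of Csf1r. For Gpnmb the ratios differed by -0.23 to 0.11.

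From animal to animal, 5 of the genes moved as a block: Cd68, Adgre1, Fcgr1a, Mrc1 and Cd163. All 10 of their pairs passed a permutation test of Pearson's r over the 16 arrays (100000 resamples, adjusted over 45 pairs), with r from 0.72 to 0.94 and a median of 0.84. All 10 passed by Spearman's rho as well. For these genes, the 95th percentile of r with all genes ran from 0.48 (Cd68 and Fcgr1a) to 0.60 (Mrc1). By r with one another, they ranked from 2 (Mrc1 for Adgre1) to 141 (Cd163 for Adgre1) of 11591 genes. The closest pair was Adgre1 and Mrc1 (r = 0.94, rho = 0.96), whose p of 1e-05 is the smallest the resamples can give. Without the 2 arrays farthest from the median of either gene, the lowest r in the block was 0.56. The block thus joined a gene grouped as lipid-associated (Cd68), both resident genes and a general gene, and did not follow the 3 named classes. Cd68 itself had a median r of 0.68 with the wider list of general macrophage genes described below. Its median r was 0.63 with the resident list and 0.16 with the lipid-associated list.

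The block was nearly as tight with the groups or the slides taken out. With each gene centred on its group mean the median r was 0.81, and centred on its slide mean it was 0.80. Over the 10 arrays high for neither other tissue it was 0.88. Within HF the 10 pairs had r from 0.68 to 0.96, and within HFT from 0.22 to 0.90 with the lowest for Adgre1 and Cd163. These values describe 8 animals each.

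**Figure D3:**
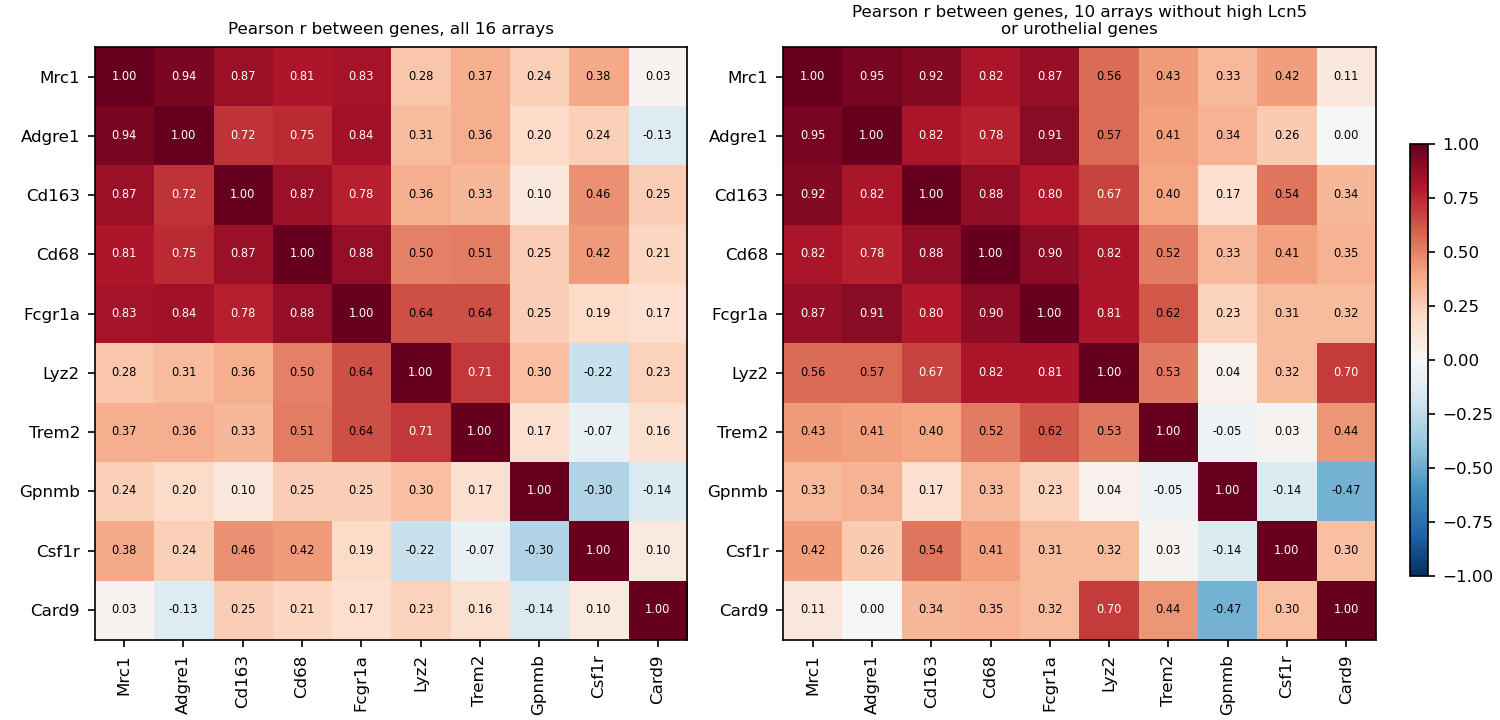
Pearson r between the levels of the 10 genes over all 16 arrays (left) and over the 10 arrays that are high for neither Lcn5 nor urothelial genes (right), on a colour scale from -1 to 1. Mrc1, Adgre1, Cd163, Cd68 and Fcgr1a form a block with r from 0.72 to 0.94 on the left, and Gpnmb, Csf1r and Card9 stand outside it.

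The lipid-associated genes formed no such block over all animals. Trem2 and Gpnmb had r = 0.17, Gpnmb and Cd68 0.25, and Trem2 and Cd68 0.51 (permutation p = 0.0448, adjusted p = 0.144), so 0 of the 3 pairs passed over the 16 arrays. Within HF their r was 0.59, 0.76 and 0.59, and within HFT -0.30, -0.29 and -0.04, over 8 animals each. The difference between the groups in these r was not tested. Trem2 instead followed Lyz2 (r = 0.71, rho = 0.86, permutation p = 0.0023, adjusted p = 0.00941), with r = 0.84 or 0.66 without the 2 arrays farthest for Trem2 or for Lyz2. It also followed Fcgr1a (r = 0.64, rho = 0.67, permutation p = 0.00737, adjusted p = 0.0255). Lyz2 and Fcgr1a passed too (r = 0.64, rho = 0.64, permutation p = 0.00689, adjusted p = 0.0255), which brings the count to 13 of 45 pairs. By r with Trem2, Lyz2 ranked 12 and Fcgr1a 53 of 11591 genes. By r with Lyz2, Trem2 ranked 243 and Fcgr1a 496, and the 95th percentile over all genes was 0.62. Each of these last 3 pairs missed the threshold in at least 3 of the 8 alternatives, and none of the 10 pairs of the block did. Centred on group means, Trem2 and Lyz2 had r = 0.60 (permutation adjusted p = 0.0585), and over the 10 arrays high for neither other tissue 0.53 (adjusted p = 0.275). Lyz2 and Fcgr1a had r = 0.51 centred on group means (permutation adjusted p = 0.148) but 0.81 over those 10 arrays (adjusted p = 0.0175). Cd68 and Lyz2 likewise went from r = 0.50 over 16 arrays to 0.82 over those 10 (permutation adjusted p = 0.0175).

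Gpnmb and Card9 passed with none of the other 9 genes. For Gpnmb r ran from -0.30 to 0.30. For Card9 it ran from -0.14 to 0.25, with a median of 0.16. That median was -0.33 with each gene centred on its group mean, 0.30 centred on its slide mean and 0.32 over the 10 arrays high for neither other tissue.

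Csf1r depended on its probe. The brighter probe passed with 0 of 9 genes (r from -0.30 to 0.46), whereas the second had r = 0.94 with Mrc1, 0.90 with Adgre1, 0.75 with Cd163, and 0.69 with Cd68 (permutation adjusted p of 9e-05, 9e-05, 0.00395 and 0.00793). The 2 probes had r = 0.35 with each other. Array HFT 28 was the lowest of all 16 on the brighter probe and mid-range on the second. Which transcripts each probe reads was not tested.

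**Figure D4:**
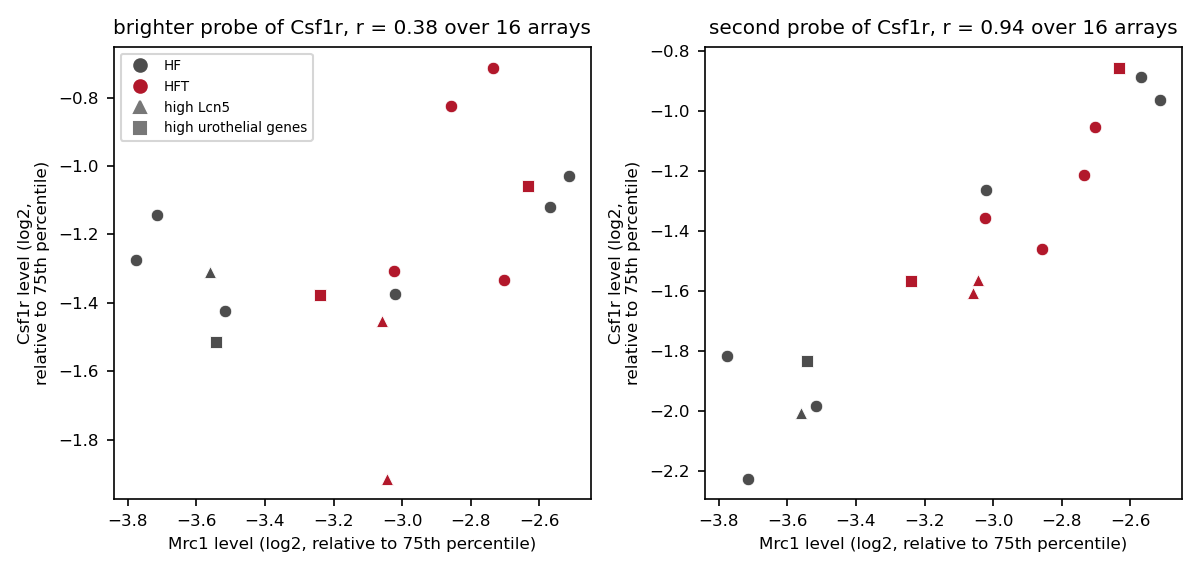
Level of Csf1r on its brighter probe (left) and its second probe (right) against the level of Mrc1, both as log2 signal relative to the array's 75th percentile, 1 point per array. The second probe follows Mrc1 (r = 0.94) and the brighter one does so less (r = 0.38).

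The genes most like each one over the 16 arrays were found by Pearson r among 11592 genes. Adgre1 was closest to Cybb (0.95), the catalytic subunit of the phagocyte oxidase, and to Btk (0.94) and Igsf6 (0.91). Mrc1 was closest to Igsf6 (0.97), Fcna (0.96) and the complement gene C1qc (0.96), and Cd68 to Tnfaip8l2 (0.92), the lectin Clec10a (0.92) and C1qc (0.92). Fcgr1a was closest to Clec4a (0.96), Fcer1g (0.94), the signalling chain of Fc receptors, and Gpr34 (0.93). Cd163 was closest to Fcnb (0.93), Hmox1 (0.92), the enzyme that breaks down haem, and C1qb (0.91). The second probe of Csf1r was closest to Cybb (0.93), Cd4 (0.93) and Spon2 (0.92).

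Outside the block, Lyz2 was closest to RT1-Da (0.89), a class II antigen-presentation gene, Cd164 (0.88) and Tmem106a (0.88). These were 0.67, 0.78 and 0.73 over the 10 arrays high for neither other tissue. Trem2 had lower values throughout, with Cfap410 (0.78), Adra2c (0.77) and Zfp658l1 (0.76). Gpnmb was closest to Gga2 (0.82), a trans-Golgi sorting adaptor, Pip5k1a (0.82) and Kif3b (0.81). Card9 was closest to Fam161a (0.80), Cltc (0.74), the clathrin heavy chain, and Alkbh6 (0.74). The brighter probe of Csf1r was closest to Shq1 (0.94), Slc7a10 (0.90), an amino acid transporter of adipocytes, and Or5a3 (0.90), none of which is on the macrophage lists. These values are descriptions over the same 16 arrays.

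Wider macrophage lists were set beside the 10 genes, each described by counts. Of all genes tested, 46% lay above 0, and at an unadjusted limma p under 0.05, 1.16% were higher and 1.15% lower. Genes that move together over animals, as those of the block did, are not separate observations, so the counts are not of independent genes. Of 17 general macrophage genes, 15 were tested and all 15 had a difference above 0, with a median of 0.25. Of these, 4 had an unadjusted limma p under 0.05. The 3 lowest were Ptprc (0.32, SE 0.12, exact p = 0.0183), the leukocyte antigen CD45, Sirpa (0.26, SE 0.10, exact p = 0.0179) and Cd86 (0.68, SE 0.29). Cd86 was above background on 1 of 8 HF and 5 of 8 HFT arrays, so it passed the signal filter through HFT alone. Its difference cannot be read as a higher level, and it counts among the 15 and the 4. The median r of the 15 genes was 0.74 with Fcgr1a and 0.68 with Cd68, against 0.16 with Gpnmb and 0.10 with Card9.

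Of 17 resident macrophage genes, 11 were tested, 7 lay above 0 and the median was 0.15. The lectin Clec10a (0.30, SE 0.14, exact p = 0.0437) and Fcna (0.46, SE 0.21, exact p = 0.0598) were the 2 with an unadjusted limma p under 0.05. Lipid-associated macrophage genes lay nearer to all genes: 10 of the 18 tested were above 0 and the median was 0.02. Their median r was 0.084 with Trem2, 0.075 with Gpnmb and 0.164 with Cd68. Over the 10 genes it ran from 0.012 with Lyz2 to 0.23 with Csf1r. The scavenger receptor Msr1 (0.35, SE 0.16, exact p = 0.0485) and the proton pump subunit Atp6v0d2 (0.52, SE 0.24, exact p = 0.0594) were the 2 with an unadjusted limma p under 0.05. Several of that list, such as Lpl (-0.04, SE 0.16), are also made by adipocytes.

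**Figure D5:**
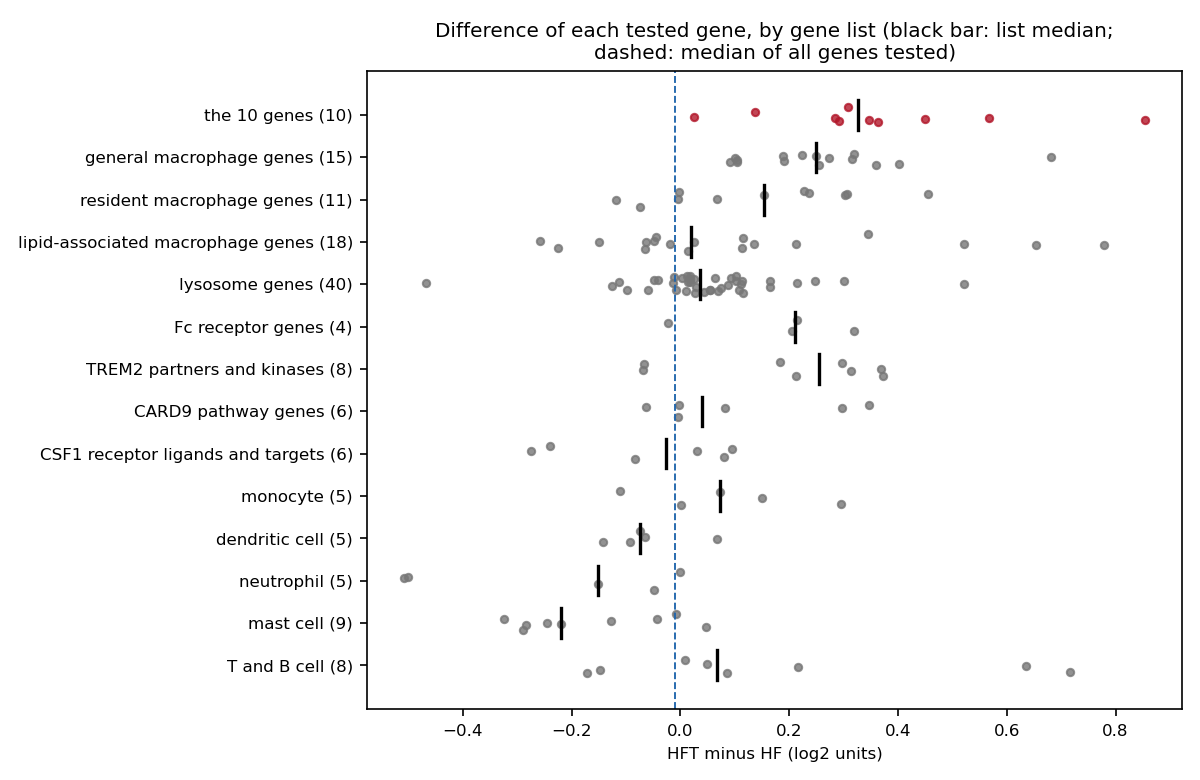
Difference HFT minus HF in log2 units of every tested gene, by gene list with the number tested in brackets; black bars are list medians and the dashed line is the median of all genes tested (-0.01). The 10 genes (red) have a median of 0.33, the general macrophage genes 0.25 and the lipid-associated macrophage genes 0.02.

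Lysosome genes, which mark an organelle of all cells, had 30 of 40 tested members above 0 but a median of 0.04, and only Atp6v0d2 had an unadjusted limma p under 0.05. The regulators Mitf and Tfeb differed by -0.04 (SE 0.11) and -0.13 (SE 0.09). Spi1, which encodes PU.1, differed by 0.19 (SE 0.20).

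The partners of the receptors were tested too. Of the TREM2 partners and kinases, 6 of 8 were above 0 with a median of 0.26 and none had an unadjusted limma p under 0.05. Tyrobp, the TREM2 adaptor, differed by 0.21 (SE 0.14). Among Fc receptor genes, Fcgr2a differed by -0.02 (SE 0.08), Fcgr2b, the inhibitory receptor, by 0.21 (SE 0.21), Fcgr3a by 0.32 (SE 0.38) and Fcer1g by 0.21 (SE 0.12). The ligands of CSF1R were near 0, at 0.08 (SE 0.27) for Csf1 and 0.10 (SE 0.12) for Il34. Of 14 CARD9 pathway genes, 6 were tested, 3 were above 0 and the median was 0.04. Its lectin receptors Clec7a, Clec4d and Clec4e were below the signal filter.

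Markers of other white cells had medians near 0 or below it. The medians of the differences were 0.07 for 8 T and B cell genes, 0.07 for 5 monocyte genes, -0.07 for 5 dendritic cell genes, -0.15 for 5 neutrophil genes and -0.22 for 9 mast cell genes. Monocyte Ccr2, and neutrophil Elane, Ltf, Mmp8 and Ngp, were below the filter. Adipocyte genes had a median of -0.01, with Retn, the adipokine resistin, at -0.40 (SE 0.16, exact p = 0.0317), and all 8 endothelial genes lay below 0 with a median of -0.20.

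Erythroid genes had a median like that of the macrophage genes. All 6 tested were above 0, with a median of 0.32 beside the 0.33 of the 10 genes. Ahsp, a haemoglobin chaperone, was higher by 0.66 (SE 0.17, exact p = 0.00357). Epb42 differed by 0.87 (SE 0.26), but it was above background on 0 of 8 HF and 7 of 8 HFT arrays. It thus passed the signal filter through HFT alone, so its difference cannot be read as a higher level. Epb42 counts among the 6. The erythroid list's median level per array ran from -0.77 to 0.14 in HF and from -0.37 to 0.46 in HFT, around the median array. For the 10 genes the same measure ran from -0.55 to 0.29 in HF and from -0.12 to 0.42 in HFT. The part of erythroid cells or blood in these differences was not tested.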

How the data were processed

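The authors deposited each array's output of Agilent Feature Extraction 10.7.3.1, not scaled between arrays (per the file headers). In it the processed intensity is background-subtracted and detrended, and the 0 or 1 marks for a spot above background, uneven or saturated come from the same software, per the file headers. The log2 table that the authors also deposited served as an alternative, with a normalization not given in the sources used here.

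Log2 processed intensities had each array's 75th percentile subtracted. Uneven and outlying spots were left out and replicate spots averaged. Probes above background on at least 4 of 8 arrays of a group were kept (21808 of 30367), and 18005 probes were named through a GRCr8 gene table. HFT and HF were compared with limma 3.58.1 in R 4.3.3, adjusted by Benjamini-Hochberg (threshold 0.05). Permutation tests were coded with NumPy 2.4.6 in Python 3.11.15, and SciPy 1.17.1 gave ranks and t quantiles. Normexp used median intensities with an offset of 50. The genes and lists were chosen with earlier results of these data known. Named are the 10 genes, the 3 genes most like each, up to 3 genes per list of smallest p under 0.05, and a fixed set of receptor partners.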

Additional observations from a re-analysis of the deposited data

Results flagged for a closer look

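Lyz2 on array HFT 28 stood apart from the other 7 HFT arrays at a level of 4.09, with a gap to the next that was 0.538 of the group's range. HFT 28 was 1 of the 3 arrays with high Lcn5. Of 24 sets of 8 arrays checked for such a gap (10 genes and 2 second probes in both groups), this was the 1 found, and chance gives about 1 in 20.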

How the results depend on the processing

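No gene passed the adjusted threshold in any alternative run but 1: without the 3 arrays high for Lcn5, 1 probe did, that of Acot5 (-4.38, limma adjusted p = 0.0131). Gpnmb turned to -0.003 with array weights, -0.015 once arrays with high urothelial genes were dropped, -0.004 without those high for Lcn5 and -0.297 without both, and leaving out 1 array gave 0.011 to 0.262. Csf1r turned to -0.018 with the urothelial arrays dropped, and leaving out 1 array gave -0.05 to 0.121, but it was 0.167 without those high for Lcn5, 0.183 without both and 0.157 with the planned tissue scores as covariates. The other 8 genes kept their sign throughout. Over the 10 arrays high for neither tissue, Trem2 differed by 1.077, Cd68 by 0.48, Adgre1 by 0.269 and Lyz2 by 0.524. Fcgr1a differed there by 0.35, Mrc1 by 0.355, Cd163 by 0.437 and Card9 by 0.735. Pairs past adjustment numbered 10 to 17 over 8 alternatives, against 13. Of the gene list counts above 0, 11 moved by over 1.5 times, all in lists of other cells. No alternative brought any of the 12 ratios past adjustment. No array met the planned rule on the epididymal list, so the exclusion by Lcn5 was chosen after seeing the data. No paired analysis was possible because HF and HFT share no label numbers. The number of arrays limits the precision: the median SE over all genes was 0.126.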
